A study of Mus musculus with 18 samples.

Results

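Peaks at 5 glial marker genes were taken from 15 chromatin immunoprecipitation sequencing (ChIP-seq) libraries of mouse cerebral cortex. The genes were Gfap and Aqp4, which mark astrocytes, Olig1 and Olig2, which mark the oligodendrocyte lineage, and Mbp, which marks myelinating oligodendrocytes. Members were all peaks overlapping 1 of 4 fixed windows of the mm39 genome: chromosome 11, 102768000 to 102802000 (34 kb, Gfap); chromosome 18, 15512000 to 15555000 (43 kb, Aqp4); chromosome 18, 82483000 to 82614000 (131 kb, Mbp); and chromosome 16, 91012000 to 91079000 (67 kb, Olig2 and Olig1). This gave 210 of the 494083 peaks on chromosomes 1 to 19, X and Y. The tissue was frozen whole cortex from 3 wild-type female C57BL/6J mice aged 14 weeks, animals 5, 7 and 9. Each animal gave 1 library for each of 5 antibodies, against H3K27ac, H3K4me1, RNA polymerase II phosphorylated at serine 5 (PolII_S5P), MBD3 and TDG. Whole cortex mixes neurons and glia, so fewer cells carrying a mark and less of the mark per cell cannot be told apart.

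Gfap encodes the intermediate filament protein of astrocytes, and Aqp4 the water channel of their endfeet. Olig2 and Olig1 are neighbouring genes for basic helix-loop-helix transcription factors that specify oligodendrocytes. Mbp encodes myelin basic protein, a main component of compact myelin, and its locus also gives longer golli transcripts from a separate upstream promoter. H3K27ac marks active promoters and enhancers, H3K4me1 mainly enhancers, and PolII_S5P polymerase near the start of transcription. MBD3 is a subunit of the NuRD complex and belongs to the methyl-CpG-binding domain family. TDG is a DNA glycosylase that removes oxidized forms of methylcytosine.

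Each library has its own peak list, with between 58679 and 68887 peaks for H3K27ac, 22611 and 45711 for H3K4me1, 4409 and 19816 for PolII_S5P, 39326 and 62164 for MBD3, and 130 and 957 for TDG. Read depth is unknown, so a gene without a peak shows that none was called, not that the mark was missing. The fold enrichment given for a peak is the authors' value, the pileup at the summit over the local background. A peak's place in its own list, sorted by fold enrichment and given as a percent of the list, is used to set libraries side by side, with small values for strong peaks. The percent also depends on the length of the list, which differs between animals, for PolII_S5P from 4409 to 19816 peaks. Positions within a window are distances from its first base. Exons, introns and start sites were not assigned to the peaks, because the gene table used here is on another build, GRCm38.p6.

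H3K27ac was called in all 4 windows in every animal and TDG in none, and H3K27ac and MBD3 covered a larger part of the Mbp window than of the others. In animals 5, 7 and 9, H3K27ac peaks covered 31.4%, 32.0% and 26.1% of the Mbp window and 11.2%, 13.7% and 8.82% of the Gfap window. They covered 8.28%, 9.85% and 5.72% of the Olig2 and Olig1 window and 4.58%, 2.85% and 0.814% of the Aqp4 window, so every Mbp value lay above every value of the other windows. The means were 29.8 ± 3.21% (SD, n = 3), 11.2 ± 2.42%, 7.95 ± 2.08% and 2.75 ± 1.89%. MBD3 peaks covered 7.63 ± 2.54%, 3.76 ± 0.515%, 2.04 ± 1.10% and 0.191 ± 0.332% of the same windows in the same order. PolII_S5P peaks covered 4.07 ± 3.50% of the Mbp window, 1.25 ± 1.09% of the Gfap window and 3.24 ± 3.59% of the Olig2 and Olig1 window, and none were called in the Aqp4 window. H3K4me1 covered 2.29 ± 2.28% of the Gfap window and 1.38 ± 0.527% of the Mbp window, with no peak in the other 2 windows. Its mean was thus not highest at Mbp, but the animals differed. Animals 7 and 9 had 2.31% and 4.56% at Gfap against 0.943% and 1.97% at Mbp. Animal 5 had no peak at Gfap and 1.24% at Mbp. For PolII_S5P, the Olig2 and Olig1 window exceeded the Mbp window in animals 5 (1.17% against 0.192%) and 7 (7.39% against 6.98%), while in animal 9 the order was the opposite, with 5.04% at Mbp. H3K27ac lay above every library of the other antibodies in the Gfap, Mbp and Aqp4 windows. In the Olig2 and Olig1 window the PolII_S5P library of animal 7, at 7.39%, exceeded the H3K27ac library of animal 9, at 5.72%. Below H3K27ac, the H3K4me1 libraries overlapped those of MBD3 and of PolII_S5P in the Gfap window, where MBD3 lay above PolII_S5P in every library. In the Mbp window MBD3 and PolII_S5P overlapped.

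Covered percent differed between antibodies in each window. The share of its variance lying between antibodies, eta squared, was 0.904 for Gfap, 0.706 for Aqp4, 0.968 for Mbp and 0.777 for Olig2 and Olig1. Permuting the antibody labels over the 15 libraries gave adjusted permutation p-values of 0.00092, 0.0131, 0.00092 and 0.0131 (one-sided, 100000 permutations, Benjamini-Hochberg over 4 windows). The lists also differ in length between antibodies over the whole genome, and the part of that difference in these values was not tested. The Aqp4 call was lost among peaks with a −log10 q of 5 or more, where eta squared was 0.265 (adjusted permutation p = 1), and without any 1 of the animals. The Gfap call was lost without animal 7 (adjusted permutation p = 0.0644), and the Olig2 and Olig1 call without animal 5 (0.145) or animal 9 (0.0511). The Mbp call held with each animal left out.

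**Figure D1:**
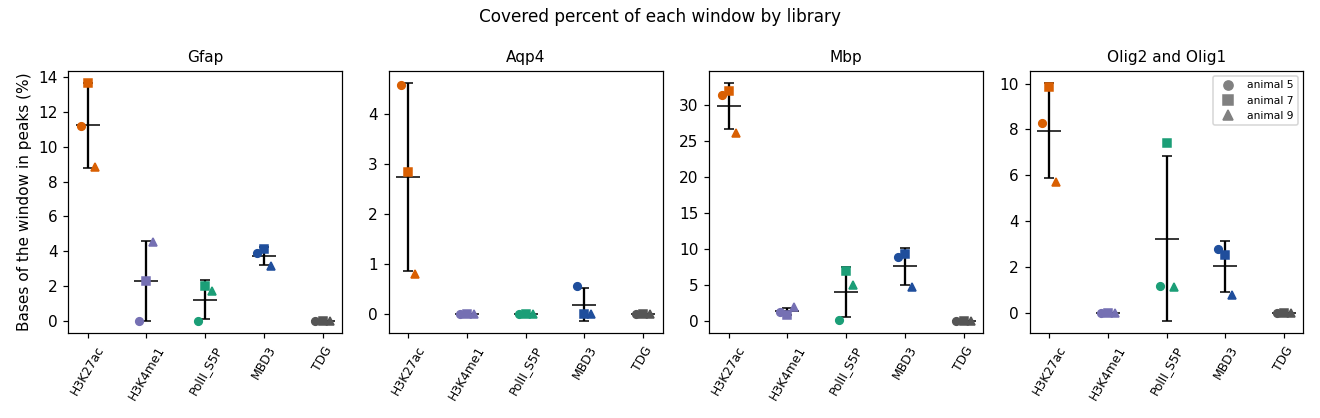
Percent of the bases of each window inside peaks, for the 5 antibodies on the x axis. Each symbol is 1 library (circle animal 5, square animal 7, triangle animal 9), the horizontal line is the mean and the bar the SD of 3 animals; the y axes differ between windows. H3K27ac covers 29.8% of the Mbp window on average and 2.75% of the Aqp4 window, and all TDG libraries lie at 0.

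To set these values against the genome, the chromosomes were divided into consecutive tiles of each window's length, and a tile was counted when all 3 animals had a peak of the antibody there. H3K27ac peaks were found in this way in 26.5% of tiles of the Gfap length, 30.3% of the Aqp4 length, 51% of the Mbp length and 38.3% of the Olig2 and Olig1 length, so its presence in any 1 of the windows is not rare. Presence in all 4 together was not set against the genome. MBD3, called in every animal in all windows but that of Aqp4, was found in 27%, 31.4%, 54.4% and 40.4% of tiles. PolII_S5P was called in every animal in the Mbp and the Olig2 and Olig1 windows, where 10.9% and 6.08% of tiles had it, against 3.3% and 4.09% for the Gfap and Aqp4 lengths. H3K4me1 was called in every animal only in the Mbp window, and the share of tiles with it was 10.8%, 13%, 28.5% and 18% in the order Gfap, Aqp4, Mbp, Olig2 and Olig1. The amount of H3K27ac at Mbp was less common. The tiles were laid without regard to genes, while each window was placed at a chosen gene. Tiles were thus not matched to the windows in gene content, and the median tile of the Mbp length had 0.436% of its bases in H3K27ac peaks. For comparison, 106 of 20209 tiles of that length (0.525%) were covered by H3K27ac to the same extent or more, 211 (1.04%) by MBD3 and 160 (0.792%) by PolII_S5P, but 3206 (15.9%) by H3K4me1. At Olig2 and Olig1 the share was 1.30% for PolII_S5P, 8.89% for H3K27ac and 20.0% for MBD3. At Gfap 3580 of 77886 tiles reached the PolII_S5P value, and the share was 6.26% for H3K27ac, 9.69% for H3K4me1 and 10.3% for MBD3, and at Aqp4 21.7% for H3K27ac and 44.9% for MBD3.

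No TDG peak fell in any window in any animal. Over the genome, 1.31%, 1.65%, 4.65% and 2.5% of tiles of the Gfap, Aqp4, Mbp and Olig2 and Olig1 lengths had a TDG peak in at least 1 animal. With lists of only 130 to 957 peaks, an empty window is thus the usual outcome.

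The Gfap window had its signal at its lower end, where H3K27ac, MBD3 and PolII_S5P peaks coincided. The strongest H3K27ac region lay at chromosome 11, 102771257 to 102774189, which is 3.26 to 6.19 kb into the window, with folds of 7.01, 8.44 and 6.00 in animals 5, 7 and 9. These peaks ranked 6603 of 66989, 3355 of 68887 and 7008 of 58679, or in the top 9.86%, 4.87% and 11.9% of their lists. The 3 summits fell within 16 bp of each other, the closest of the 18 H3K27ac regions of the windows found in every animal. The median was 126 bp over those 18 and 169 bp over all 36793 such regions of the genome. MBD3 lay on this region in every animal, at 102771474 to 102772737, with folds of 9.54, 10.3 and 5.96 and ranks of 10822 of 57622, 8049 of 62164 and 17962 of 39326 (18.8%, 12.9% and 45.7%). PolII_S5P was called in animals 7 and 9 only, at 102771550 to 102772239, with folds of 4.44 and 2.96, ranks of 7549 of 19816 and 10455 of 12691 (38.1% and 82.4%), and summits 3 bp apart.

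H3K4me1 did not overlap the acetylated region but ended just before it, 1.55 to 3.20 kb into the window (102769548 to 102771200). It was called in animal 7 with a fold of 3.42 (rank 10440 of 45711, 22.8%) and in animal 9 with a fold of 3.98 (rank 2518 of 22611, 11.1%), and not in animal 5. A weaker H3K27ac region lay at 10.5 to 11.7 kb (102778548 to 102779726) in every animal, with folds of 3.10, 3.17 and 2.90, in the weaker part of each list (68.8%, 68.5% and 78.3%). From 11.7 kb to the end of the window, the only peak of any library was an MBD3 peak of animal 5 at 23.8 kb with a fold of 2.75.

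Gfap itself spans 9.87 kb in the RefSeq gene table, so most of the 34 kb window lies outside the gene. In that table the genes next to Gfap on its lower side are Fam187a, Ccdc103 and Eftud2. Gfap is on the minus strand, so it starts at its higher end. A gene of 9.87 kb starting at 3.26 to 6.19 kb would run past the lower edge of the window. If Gfap lies wholly inside the window, its start is thus above this region, at 9.87 kb or more. Beyond 11.7 kb only the weak MBD3 peak of animal 5 was called, so the Gfap start may carry no called peak. Which of these genes the region at 3.26 to 6.19 kb belongs to was not determined. Values given as at Gfap, including coverage and ranks, are those of the window and may be those of a neighbouring gene. The values for this window depend on its edge. With 5000 bp removed from each end, no PolII_S5P or H3K4me1 peak remained, and MBD3 fell from a mean of 1.67 to 0.667 peaks.

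RefSeq promoter sequences were obtained for only 2 of the 5 genes, Gfap and Olig2, on GRCm38.p6, and both are shown. They were not chosen for their number of CG, the usual place of cytosine methylation in mammals, though they differ in it. The promoters of the other genes were not examined. Each line gives the 250 bases before the annotated start, 5′ to 3′ on the gene's strand, with every CG in capitals. Gfap is chr11:102897201-102897450 on the minus strand and Olig2 chr16:91225300-91225549 on the plus strand.
Gfap: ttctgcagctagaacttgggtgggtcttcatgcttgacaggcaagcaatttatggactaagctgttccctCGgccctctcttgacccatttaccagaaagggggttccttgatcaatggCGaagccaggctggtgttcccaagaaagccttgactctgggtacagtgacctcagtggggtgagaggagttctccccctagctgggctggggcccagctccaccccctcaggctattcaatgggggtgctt
Olig2: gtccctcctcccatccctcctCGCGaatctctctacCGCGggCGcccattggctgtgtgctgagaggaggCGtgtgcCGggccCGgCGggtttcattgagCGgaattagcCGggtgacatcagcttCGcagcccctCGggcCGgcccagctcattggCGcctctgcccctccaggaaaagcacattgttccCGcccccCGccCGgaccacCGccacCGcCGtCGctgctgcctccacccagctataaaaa
The Gfap promoter holds 2 CG and the Olig2 promoter 22, against a median of 6 over 32851 promoters of the same length, of which 81.2% and 14.8% had at least as many. G and C make up 55.6% and 66.8% of the bases. The letters TATAAA, searched on both strands, occur once in the Olig2 promoter, near its end, and not in that of Gfap, and 12.4% of promoters hold them. Neither holds CANNTG, the E-box core bound by basic helix-loop-helix factors, which 66.2% of promoters do. Whether a peak lies on these stretches was not determined, since they are on another build.

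In the Olig2 and Olig1 window the marks shared by all animals fell in 3 places, and polymerase and acetylation were strongest at different ones. PolII_S5P peaks lay 12.6 to 14.2 kb into the window in every animal (chromosome 16, 91024568 to 91026242), with folds of 3.98, 7.06 and 4.20 and summits within 50 bp. They ranked 2010 of 4409, 1284 of 19816 and 5206 of 12691, or in the top 45.6%, 6.48% and 41.0% of their lists. No H3K27ac, MBD3 or H3K4me1 peak of any animal overlapped this PolII_S5P region. A small H3K27ac region stood beside it, at 10.5 to 11.2 kb, in animals 5 and 7 (folds 3.02 and 3.65), and in animal 7 it overlapped another PolII_S5P peak.

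The strongest acetylation lay 47.3 to 49.9 kb into the window (91059318 to 91061933), with H3K27ac folds of 6.47, 5.20 and 5.02. These peaks ranked 8174 of 66989, 15128 of 68887 and 12310 of 58679 (12.2%, 22.0% and 21.0%). PolII_S5P was not called there in any animal and MBD3 only in animal 7, with a fold of 3.68. At 54.3 to 56.8 kb all 3 of H3K27ac, MBD3 and PolII_S5P occurred, PolII_S5P in animal 7 only (fold 4.90). The H3K27ac peaks of this place were wide and weak (91066705 to 91068763, folds 3.09, 2.63 and 2.43, in the top 68.9%, 85.8% and 90.8%). MBD3 at 91066289 to 91067671 had folds of 7.44, 5.68 and 3.36, in the top 32.5%, 49.3% and 91.2%. Between 14.2 and 44.2 kb no library had a peak, the longest such stretch of the 4 windows (30.0 kb). H3K4me1 was absent from all 3 lists here. Of the 15118 tiles of this length with H3K27ac in every animal, 17.7% likewise had no H3K4me1 in any animal. The gene table lists Olig2 before Olig1 along the chromosome, as 3.13 and 2.17 kb genes with the non-coding gene Gm52261 between them.

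Aqp4 was the most sparsely marked. An H3K27ac region starting at 23.7 kb (chromosome 18, 15535698 to 15536650) was found in every animal with summits within 25 bp, but its folds of 2.95, 3.55 and 3.01 lay in the weaker part of the lists (74.2%, 55.7% and 75.6%). A wider region at 25.3 to 26.8 kb (15537302 to 15538769) was found in animals 5 and 7, with folds of 3.33 and 3.97 (59.2% and 42.1%). MBD3 was called in animal 5 only, on the second region (15538182 to 15538428, fold 6.46, rank 24709 of 57622, 42.9%). All peaks of the window fell between 23.7 and 26.8 kb, so the first 23.7 kb and the last 16.2 kb had no peak in any library. Of the 18677 tiles of the Aqp4 length with H3K27ac in every animal, 52.3% likewise had no PolII_S5P in any animal and 21.5% no H3K4me1. MBD3 was found in every animal in 78.2% of them and in no animal in 5.77%. Among peaks with a −log10 q of 5 or more, the number of H3K27ac peaks in the window fell from a mean of 1.67 to 0.667.

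**Figure D2:**
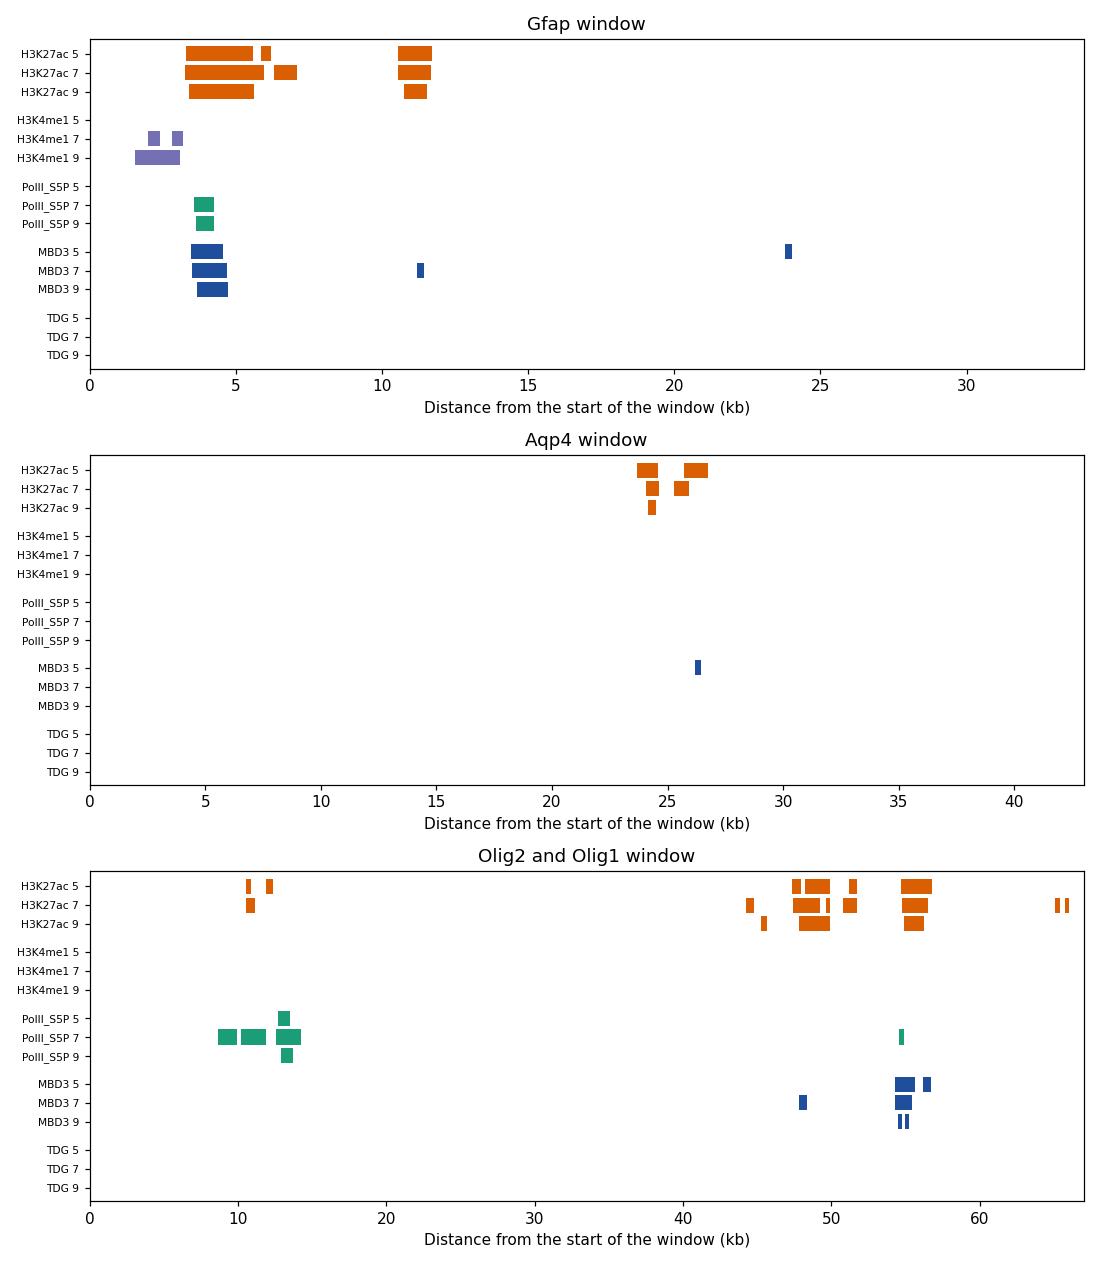
Peaks of the 15 libraries along the Gfap, Aqp4 and Olig2 and Olig1 windows. The x axis is the distance from the start of the window in kb, each row is 1 library (antibody and animal number), and bars are peaks drawn to scale. In the Olig2 and Olig1 window the PolII_S5P peaks shared by all animals lie at 12.6 to 14.2 kb and the strongest H3K27ac peaks at 47.3 to 49.9 kb.

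The Mbp window held 157 of the 210 peaks. H3K27ac gave 24, 18 and 23 peaks in animals 5, 7 and 9, MBD3 24, 20 and 13, PolII_S5P 1, 14 and 10, and H3K4me1 3, 3 and 4. Peaks of H3K27ac merged over animals formed 26 regions, of which 13 were found in every animal, and MBD3 formed 25, of which 12 were. Over the whole genome 43.5% of H3K27ac regions and 40.6% of MBD3 regions were found in every animal, so these counts are close to the background. The bases covered by H3K27ac were much the same in different animals (mean Jaccard index, shared over all covered bases, 0.729). At Mbp the index was lower for MBD3 (0.462), PolII_S5P (0.143) and H3K4me1 (0.106). For H3K27ac it was 0.708 at Gfap, 0.484 at Olig2 and Olig1 and 0.261 at Aqp4. These values were not set against the genome.

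A pair of very wide H3K27ac peaks filled the middle of the Mbp window. One ran from 65.3 to 74.5 kb (chromosome 18, 82548299 to 82557459) and was 8.38, 9.10 and 8.42 kb wide in animals 5, 7 and 9, which placed it 189, 147 and 87 from the top of the lists by width. The other ran from 80.2 to 89.3 kb (82563154 to 82572347) and was 9.19, 9.05 and 8.50 kb wide, with width ranks of 140, 150 and 84. Both thus belonged to the widest 0.282% of all H3K27ac peaks in every animal. Their folds were moderate, at 6.94, 6.55 and 4.70 for the first and 3.37, 5.53 and 3.85 for the second. The highest H3K27ac fold lay elsewhere in animals 5 and 9, at 25.5 to 29.9 kb (82508527 to 82512852), with folds of 7.47, 6.44 and 7.24 and ranks of 5306 of 66989, 8433 of 68887 and 3479 of 58679 (7.92%, 12.2% and 5.93%). In animal 7 the first wide peak was the strongest, at rank 8123 of 68887 (11.8%).

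MBD3 formed narrow peaks within these acetylated stretches, and at Mbp its strongest peak ranked higher in its list than that of H3K27ac. The best MBD3 region lay at 70.6 to 72.0 kb (82553621 to 82554959), inside the first wide H3K27ac peak, with folds of 14.9, 16.3 and 14.6 in the top 5.02%, 3.10% and 4.64% of the lists. Its summits fell within 14 bp of each other in the 3 animals, the closest of the 14 MBD3 regions of the windows found in every animal. Their median was 97.5 bp, wider than the 63 bp over all 30671 such regions of the genome. Other strong MBD3 regions lay at 110.5 to 111.1 kb (folds 15.0, 12.9 and 10.1) and 112.8 to 113.7 kb (folds 10.2, 9.83 and 15.0), both on H3K27ac in every animal. A further one at 7.01 to 7.64 kb (folds 11.3, 9.21 and 9.76) met H3K27ac peaks in animals 7 and 9 only. The strongest MBD3 peak of the window ranked 2825 of 57622, 1924 of 62164 and 1639 of 39326 (4.90%, 3.10% and 4.17%). All 3 MBD3 libraries thus ranked above all 3 H3K27ac libraries at Mbp, in lists of unequal length. At Gfap and at Olig2 and Olig1 the order was the opposite, again without overlap, with MBD3 at 31.6%, 49.3% and 91.2% in the latter window. Each of these differences had an exact permutation p of 0.1, two-sided, the smallest that 3 against 3 libraries allows (adjusted p = 0.133 over 4 windows). For Aqp4 the exact permutation p was 0.5. The rank of the strongest peak also depends on how many peaks a window holds, since more peaks give more chances of a high rank. H3K27ac had more peaks than MBD3 on average in all 4 windows, at Mbp as well as where it ranked higher. The part of peak number in the rank differences was not tested. The design cannot pass a threshold of 0.05, and the separation of the libraries was not stable. The exact permutation p rose to 0.2 at Mbp with lists of equal length, to 0.2 at Gfap with a −log10 q of 5 or more or with peaks within 500 bp merged, and to 0.6 at Olig2 and Olig1 with peaks ranked by q-value.

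**Figure D3:**
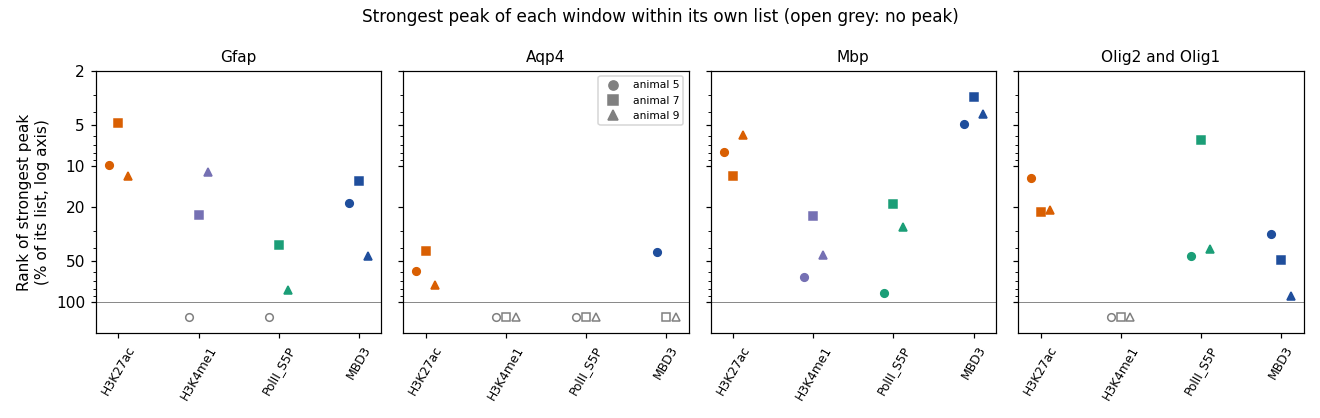
Rank of the strongest peak of each window within its own list, as a percent of the list on a log axis with strong peaks at the top. Each symbol is 1 library (circle animal 5, square animal 7, triangle animal 9), and open grey symbols under the line at 100 are libraries without a peak in the window. MBD3 lies between 3.10% and 4.90% at Mbp, above H3K27ac, and below H3K27ac at Gfap and at Olig2 and Olig1.

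PolII_S5P occupied another part of the Mbp window than the wide acetylated peaks. All 25 PolII_S5P peaks of the window lay beyond the end of the second wide H3K27ac peak, starting at 99.8, 89.7 and 91.8 kb in animals 5, 7 and 9. The strongest PolII_S5P region of the window lay at 120.3 to 122.5 kb (82603269 to 82605521) in animals 7 and 9, with folds of 5.38 and 4.66 and ranks of 3779 of 19816 and 3542 of 12691 (19.1% and 27.9%). No H3K27ac or MBD3 peak of any animal overlapped it. The 1 region called in every animal lay at 99.8 to 100.4 kb (82582753 to 82583354), with folds of 2.79, 4.36 and 2.96 and ranks of 3813 of 4409, 7890 of 19816 and 10449 of 12691. The number of PolII_S5P peaks at Mbp followed the length of the lists, which hold 4409, 19816 and 12691 peaks. With lists shortened to equal length, a mean of 1.00 PolII_S5P peaks remained at Mbp instead of 8.33, and 0.667 instead of 2.00 at Olig2 and Olig1.

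**Figure D4:**
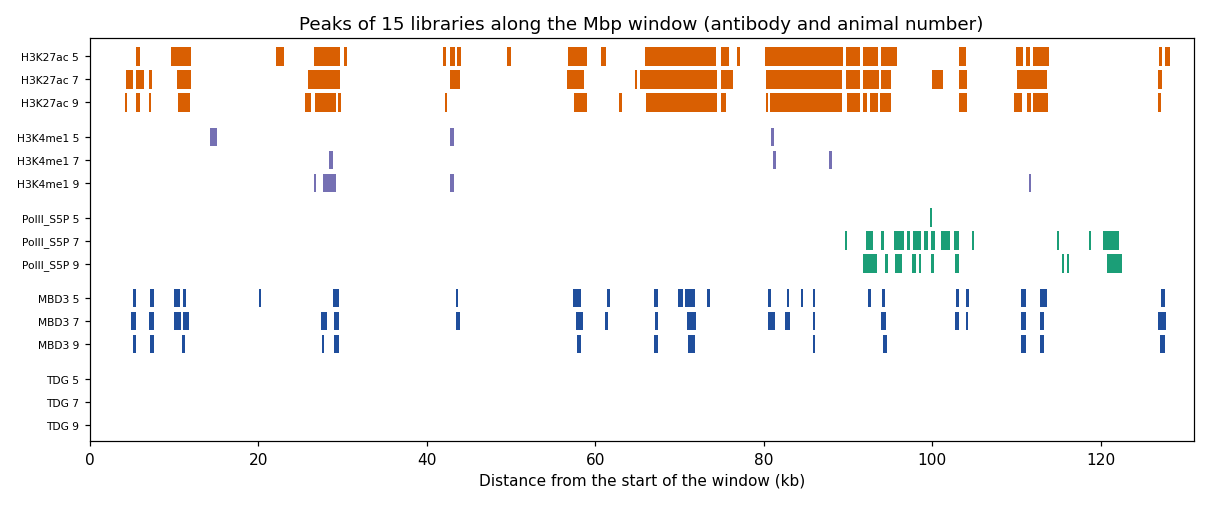
Peaks of the 15 libraries along the Mbp window. The x axis is the distance from the start of the window in kb, each row is 1 library (antibody and animal number), and bars are peaks drawn to scale. The wide H3K27ac peaks lie at 65.3 to 74.5 and 80.2 to 89.3 kb, and PolII_S5P peaks begin at 89.7 kb.

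H3K4me1 was sparse and weak at Mbp. Its strongest peaks lay at 14.3 to 15.1 kb in animal 5 (fold 2.79, rank 22254 of 33835, 65.8%) and at 27.7 to 29.2 kb in animals 7 and 9 (folds 3.37 and 3.20, ranks 10739 of 45711 and 10151 of 22611, 23.5% and 44.9%). The latter lay on the H3K27ac region with the highest fold. No H3K4me1 region of the window was found in every animal, and with a −log10 q of 5 or more a mean of 0.667 peaks remained instead of 3.33. The first wide H3K27ac peak carried no H3K4me1 in any animal, while the second did in animals 5 and 7.

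**Figure D5:**
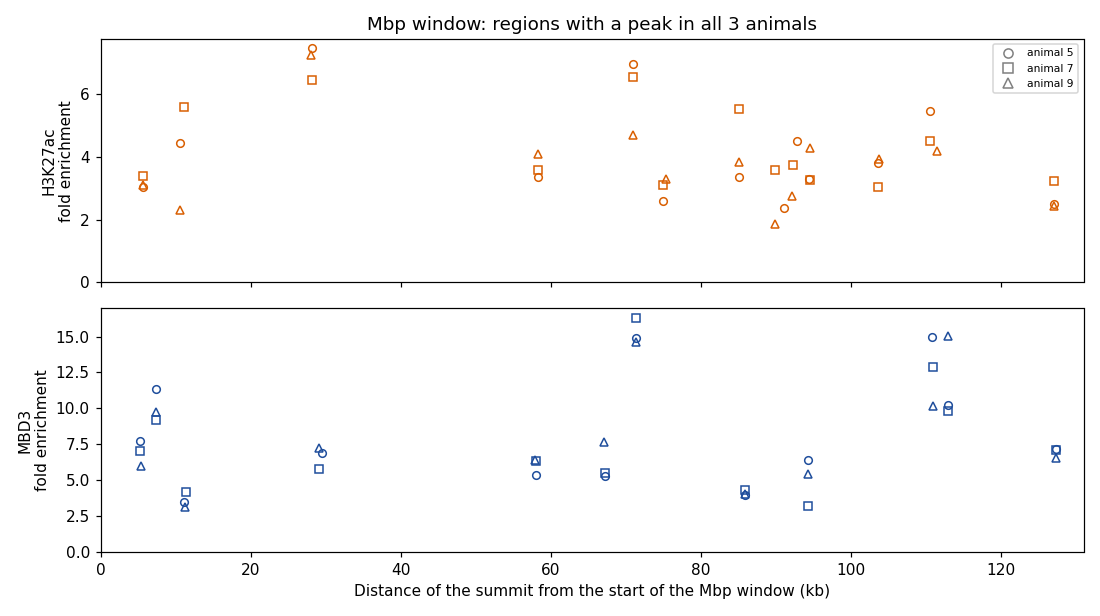
Fold enrichment of the Mbp regions with a peak in all 3 animals, 13 for H3K27ac (top) and 12 for MBD3 (bottom), against the distance of the summit from the start of the window in kb. Each symbol is 1 animal (circle 5, square 7, triangle 9). The highest MBD3 folds lie at 70.6 to 72.0 kb and beyond 110.5 kb, and the highest H3K27ac folds at 25.5 to 29.9 and 65.3 to 74.5 kb.

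Over the 4 windows together, most of whose peaks come from Mbp, MBD3 peaks were mostly on acetylated chromatin while few H3K27ac peaks carried H3K4me1. Of the MBD3 peaks, 24 of 29, 22 of 24 and 15 of 16 overlapped an H3K27ac peak of the same animal in animals 5, 7 and 9. These shares of 82.8%, 91.7% and 93.8% (exact 95% intervals 64.2 to 94.2%, 73.0 to 99.0% and 69.8 to 99.8%) stood above the 61.8%, 59.7% and 59.7% of all MBD3 peaks. The intervals cover counting error only, and the peaks are not replicates. By window, 20 of 24, 18 of 20 and 13 of 13 MBD3 peaks were on H3K27ac at Mbp, and 1 of 2, 2 of 2 and 1 of 1 at Gfap. At Olig2 and Olig1 2 of 2, 2 of 2 and 1 of 2 were, and at Aqp4 the 1 MBD3 peak, in animal 5. H3K27ac covered 29.8% of the Mbp window on average, against a median of 0.436% over tiles of its length. How much of the difference from all MBD3 peaks goes with this density was not tested. Of the PolII_S5P peaks, 0 of 2, 8 of 19 and 3 of 12 were on H3K27ac, against 60.9%, 61.2% and 59.7% of all PolII_S5P peaks. Most of these peaks were at Mbp, with 0 of 1, 5 of 14 and 2 of 10 on H3K27ac. At Gfap the 1 PolII_S5P peak of animal 7 and the 1 of animal 9 both lay on H3K27ac, and at Olig2 and Olig1 0 of 1, 2 of 4 and 0 of 1 did. The difference from the whole lists was not tested.

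Of H3K27ac peaks in the windows, 5.71%, 6.45% and 6.90% overlapped H3K4me1 (2 peaks in each animal, all at Mbp). Of all H3K27ac peaks, 25.8%, 32.4% and 19% did. The Aqp4 window and the Olig2 and Olig1 window had no H3K4me1 peak, so no overlap was possible there. The difference between the pooled windows and the whole lists was -19.4 ± 6.96 percentage points (SD, n = 3). It had the same sign in every animal and under every alternative tried, though it shrank to -8.16 points with a −log10 q of 5 or more. MBD3 lay on 48.6%, 54.8% and 48.3% of the H3K27ac peaks in the windows, against 47.7%, 49.1% and 37.4% of all H3K27ac peaks. This difference of 5.84 ± 5.00 points turned to -12.7 where at least 0.5 of the H3K27ac peak had to be covered and to -3.73 where its summit had to lie in an MBD3 peak. The windows differed, with MBD3 on 14 of 24, 13 of 18 and 12 of 23 H3K27ac peaks at Mbp. At Olig2 and Olig1 it lay on 1 of 6, 2 of 8 and 1 of 3. The counts were 1 of 3, 2 of 3 and 1 of 2 at Gfap, and 1 of 2, 0 of 2 and 0 of 1 at Aqp4. Over all windows PolII_S5P lay on 0%, 22.6% and 13.8% of H3K27ac peaks, against 3.81%, 16.3% and 12.4% of the whole lists. This is a difference of 1.28 ± 5.06 points, which is within its spread between animals.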

How the data were processed

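Peaks were analysed from 15 ChIP-seq libraries (5 antibodies, 3 animals); the 3 input samples were not analysed here. The submitters' processing notes name MACS2 2.2.7.1 as well as Picard 2.18.29, SAMtools 1.16.1, Trim Galore 0.6.7 and bcl2fastq 2.20, and the builds mm39 and hg38. Not given in the sources used here are the aligner and whether the inputs served as controls. The authors deposited 1 list per library, without pooling. Each deposited peak carries its fold enrichment, which is a ratio to the local background, the −log10 of its p-value and of its q-value, a whole-number score, and the offset of its summit in bp. Contigs are named differently in the MBD3 and TDG lists than in the others, a difference in the authors' processing that cannot be told apart from the antibody.

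Windows, members and comparisons were chosen with earlier results of these data known. Peaks belonged to a window, or to each other, with an overlap of at least 1 bp, and regions are peaks of 1 antibody merged over animals. The regions named are, for each window and antibody, the one in the most animals with the best mean rank, the widest H3K27ac region and any TDG peak; others named were chosen after their values were seen. A library without a peak in a window was given a rank of 100% in the rank test. Covered percent was tested by permutation and ranks by an exact permutation test. Read depth is unknown, and the number of animals, the length of each list, the q-value threshold and the window edges limit what the counts can show. Libraries with the same number are from 1 animal, per the labels, and so are paired. Over tiles of the Mbp length, deviations from the antibody mean correlated at a mean of 0.252 between antibodies in the same animal (range -0.304 to 0.735, 18 pairs of libraries) and -0.124 in different animals. Deviations from a mean of the same 3 animals cancel out, so the value in different animals largely follows from the other. It is not a separate contrast, and the part of list length in both values was not tested. The overlap and tile code was tested on simulated data with known answers. Alternatives covered the q-value threshold, window edges, list length, merging, ranking, the overlap rule, the animals and the pairing. Computation used scipy 1.17.1, pandas 2.3.3 and numpy 2.4.6 under Python 3.11.15, and plots matplotlib 3.10.9.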

Additional observations from a re-analysis of the deposited data

How the results depend on the processing

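The antibody difference in covered percent held for Mbp under every alternative run, with eta squared from 0.963 to 0.992 (0.970 to 0.983 with 1 animal left out). It was lost for Aqp4 with a −log10 q of 5 or more (0.265), and with 1 animal left out for Aqp4 (0.606 to 0.928), Gfap (0.894 to 0.964, lost without animal 7, adjusted permutation p = 0.0644) and Olig2 and Olig1 (0.749 to 0.927, lost without animals 5 and 9, adjusted permutation p = 0.145 and 0.0511), where fewer libraries are left to permute. With the animal as a replicate block no call changed (eta squared 0.921, 0.764, 0.975 and 0.854 for Gfap, Aqp4, Mbp and Olig2 and Olig1).

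The log10 rank difference between H3K27ac and MBD3 kept its sign at Gfap, Mbp and Olig2 and Olig1 under all alternatives, though not always the separation of the libraries, and paired by animal it cannot go below an exact permutation p of 0.25. At Aqp4 (-0.119) it turned to 0.0192 with a −log10 q of 5 or more and ranged from -0.249 to 0.00933 with 1 animal left out. The share of H3K27ac peaks of the windows with H3K4me1, less that of all H3K27ac peaks, was -8.16 points with a −log10 q of 5 or more and -11.4 where at least 0.5 of the peak had to be covered. That for MBD3 turned to -12.7 under that coverage rule and to -3.73 with the H3K27ac summit inside the MBD3 peak. That for PolII_S5P turned to -4.60 with lists of equal length, to -2.13 with peaks within 500 bp merged, and ranged from -1.23 to 3.83 with 1 animal left out. The cause of these changes was not tested. Of single values, 19 mean peak numbers moved and 141 did not, and 14 mean ranks moved by more than 1 SD and 166 did not.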
